A study of Mus musculus with 4 samples.

Results

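Mucins are the large glycoproteins of airway mucus, and their transcripts were followed here in RNA sequencing of 4 samples of airway epithelial cells sorted from mouse lung. The gene set was 8 mucins chosen by name out of 25124 listed gene symbols: the 2 gel-forming airway mucins Muc5ac and Muc5b and 6 membrane-bound mucins, Muc1, Muc4, Muc13, Muc15, Muc16 and Muc20. All mice were C57BL/6 of WT (wild-type) genotype and had been given HDM (house dust mite) for sensitisation, an allergen that provokes airway inflammation and mucus production. Of the samples, 2 came from mice that also received an inhibitor of stearoyl-CoA desaturase 1 (SCD1), which makes monounsaturated fatty acids, and 2 from mice that also received the vehicle dimethyl sulfoxide (DMSO). The labels do not give the inhibitor's name, its dose and timing or the number of mice per sample. Mice without HDM were not analysed here, so the values compare inhibitor with vehicle under allergen alone.

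Gel-forming mucins are secreted and joined by disulfide bonds into long polymers that make up the mucus gel moved along by cilia. Muc5b is the mucin that clearance depends on in the resting mouse airway, and Muc5ac is the one known to be induced by allergen and IL-13 in goblet cells. Membrane-bound mucins stay attached to the cell and form a brush around cilia and microvilli. Both kinds carry dense O-linked sugars on serine and threonine residues of long, often repeated stretches.

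Values are normalised read counts, the reads of a gene over a single scaling factor for its library, and the libraries held 24591122 to 27013663 reads assigned to genes. Of the 8 mucins, Muc16 was not analysed here and Muc13 and Muc15, known best from gut and milk, were at 0 in all 4 libraries, where a count of 0 allows up to 3 reads per library. The other 5 mucins all passed the floor for testing, a mean of 25.8 normalised reads, which 13810 genes passed. The cells were labelled airway epithelium, and all 10 ciliated, all 8 club and all 6 general epithelial markers were detected. All 9 alveolar type 2 markers were detected too, with a summed level of 312675 and 260488 normalised reads with the inhibitor and 399527 and 457588 with DMSO. The 8 leukocyte markers summed to 2936 and 2237 normalised reads with the inhibitor and 3073 and 4951 with DMSO. Most of each sum was Lyz1, at 2313 and 1986 with the inhibitor and 2893 and 4218 with DMSO, so it rests mainly on this gene.

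The coding sequences show the stretches that sugars attach to, and which of these genes are long. Muc5ac (chromosome 7, 141788972 to 141819231, plus strand, mm10) and Muc5b (141839070 to 141873084, same strand) lie side by side, 19838 bases apart, with longest transcripts of 10.8 and 15.0 kb and 49 exons each. Muc4 (chromosome 16, 32735886 to 32782391, plus strand) has a transcript of 11.3 kb in 27 exons. Muc20 (32777419 to 32797435, minus strand) runs into it from the other side with a transcript of 3.67 kb, and Muc1 (chromosome 3, 89229057 to 89233381, plus strand) is the shortest at 2.24 kb. Codons for serine, threonine or proline made up 31.2% of the coding sequence of Muc5ac, 33.8% of Muc5b, 44.0% of Muc1, 44.8% of Muc4 and 43.4% of Muc20. A repeat with a best-scoring period of 96 bases spanned 1166 coding bases of Muc5ac, 11.2% of its coding sequence. Identity from each base to the one a period later was 96.4%. Those 96 bases themselves hold a shorter run of codons in tandem, with copies that differ at 1 base, so a shorter period exists. In Muc4 a period of 372 bases spanned 3657 coding bases, 35.1% of its coding sequence, at 76.8% identity. No repeat reached the score of 60 in Muc5b. The first units of both repeats are shown because Muc5ac stands for the secreted and Muc4 for the membrane-bound kind. Capitals mark serine and threonine codons, 21 of 32 codons in the Muc5ac unit and 54 of 100 in the first 300 bases of the Muc4 unit, each in 1 exon, at chr7:141808651-141808746 (plus strand) and chr16:32751759-32752058 (plus strand) of mm10.
Muc5ac repeat unit: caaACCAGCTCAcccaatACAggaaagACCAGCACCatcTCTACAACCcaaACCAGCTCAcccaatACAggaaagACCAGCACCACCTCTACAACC
Muc4 repeat unit, first 300 bases: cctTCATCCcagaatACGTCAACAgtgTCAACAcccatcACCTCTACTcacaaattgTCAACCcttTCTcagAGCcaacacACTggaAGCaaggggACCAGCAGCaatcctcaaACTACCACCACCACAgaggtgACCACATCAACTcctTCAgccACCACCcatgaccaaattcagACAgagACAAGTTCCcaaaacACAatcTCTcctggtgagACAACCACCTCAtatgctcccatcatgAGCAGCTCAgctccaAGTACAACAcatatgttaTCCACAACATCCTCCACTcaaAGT
How the aligner treated reads from such repeats is not given in the sources used here.

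The comparison asked whether the mucins of allergen-sensitised airway cells differed when SCD1 was inhibited. They did not move together: Muc5b fell, Muc4 rose, and Muc5ac, Muc1 and Muc20 did not pass the test over all genes. Of the 5 tested mucins 1 passed in each direction, where 1.36% of all tested genes were called higher and 0.427% lower, 1.79% in all (limma, Benjamini-Hochberg adjusted p under 0.05 over 13810 genes). Inhibitor and DMSO libraries were separated in each of the 5, with Muc4 and Muc20 higher and Muc5ac, Muc5b and Muc1 lower with the inhibitor. Such separation was common, at 22.7% of tested genes in the higher and 22.2% in the lower direction, 44.9% together.

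**Figure D1:**
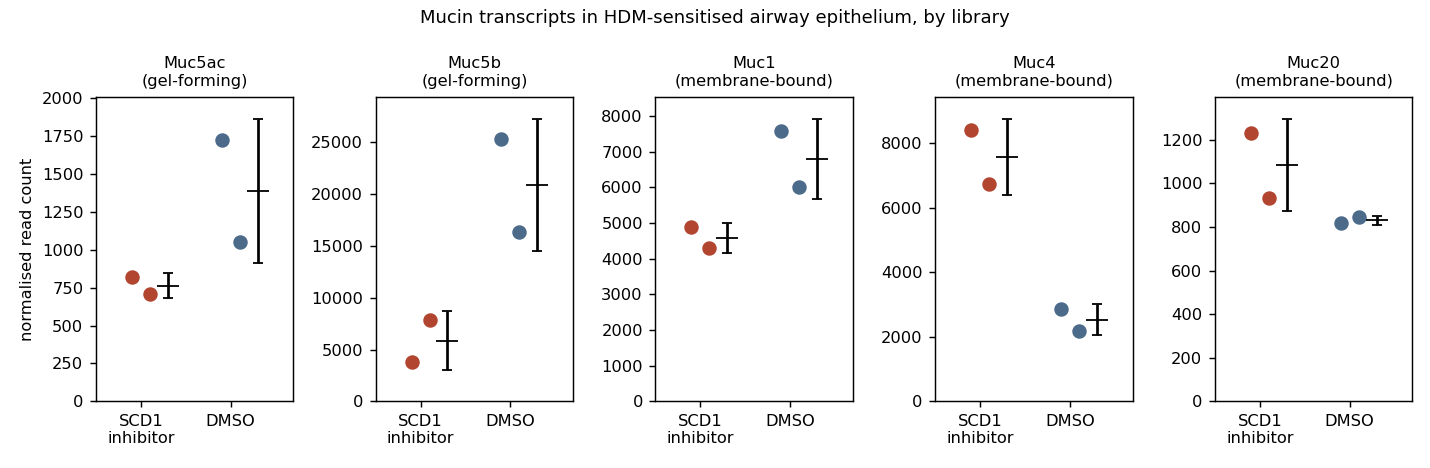
Normalised read counts of the 5 detected mucins in each library, SCD1 inhibitor (red) left and DMSO (blue) right, with the mean ± SD (n = 2) in black beside the points and every axis starting at 0. Muc5b stands between 3833 and 7901 with the inhibitor, below both DMSO libraries, and Muc4 between 6736 and 8399, above both.

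Muc5b had 3833 and 7901 normalised reads in the inhibitor libraries, against 25370.1 and 16369 in the DMSO libraries. The highest inhibitor library thus lay below the lowest DMSO library, and the inhibitor libraries differed from each other by more than the DMSO libraries did on a log scale. Its log2 fold change was -1.88 ± 0.26 (SE, limma adjusted p = 0.00362), a 3.69-fold lower level. Muc5b is the polymer-forming mucin of club and goblet cells and was the mucin with the most reads in both DMSO libraries. In bulk RNA, here and for the other mucins, fewer cells of a type and less RNA per cell cannot be told apart. The call ended without SCD1 inhibitor replicate 1, the library with the lower value (-1.36, adjusted p = 0.0727), with edgeR on the recovered reads (-1.84, adjusted p = 0.0963), and with limma without its intensity trend (adjusted p = 0.453).

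Muc5ac, the allergen-inducible gel-forming mucin, had 821 and 705 normalised reads with the inhibitor and 1720.3 and 1051 with DMSO. The groups were separated, but DMSO replicate 1 stood well above DMSO replicate 2, whose value was near those of the inhibitor libraries. The log2 fold change was -0.80 ± 0.23 (SE, limma adjusted p = 0.121), with a 95% interval of -1.31 to -0.30 before adjustment. It was -1.15 without DMSO replicate 2, where it passed (adjusted p = 0.00835), and -0.45 without DMSO replicate 1 (adjusted p = 0.297).

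The ratio of Muc5b to Muc5ac within a library was 4.67 and 11.2 with the inhibitor and 14.7 and 15.6 with DMSO. The difference between the log2 fold changes of Muc5b and Muc5ac was -1.08, with Muc5b the lower. The inhibitor library with the lowest Muc5b value was the one with the higher Muc5ac value, so the 2 gel-forming mucins did not follow each other among the inhibitor libraries. Tollip, the next gene beyond Muc5b at 1728 bases, had 3483 and 3300.2 normalised reads with the inhibitor and 3867 and 3552 with DMSO (log2 fold change -0.13 ± 0.13, SE, limma adjusted p = 0.712). Muc2, the intestinal gel-forming mucin on the other side of Muc5ac, was at 0 in all libraries.

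Muc4, a long membrane-bound mucin of the airway surface that binds the receptor ErbB2 in rat and human cells, had 8399 and 6736 normalised reads in the inhibitor libraries, against 2870.45 and 2187 in the DMSO libraries. Both inhibitor libraries lay well above both DMSO libraries, with a gap between the groups wider than the distance between replicates of either. The log2 fold change was 1.58 ± 0.15 (SE, limma adjusted p = 0.000365), a 2.98-fold higher level. It was called with edgeR (1.57, adjusted p = 0.0392) and DESeq2 (1.58, adjusted p = 1.2e-18). Without SCD1 inhibitor replicate 1 the log2 fold change was 1.42 (adjusted p = 0.0596), and without limma's intensity trend the adjusted p was 0.450.

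Muc1, a membrane-bound mucin of secretory and alveolar type 2 cells with a signalling tail, had 4876 and 4292 normalised reads with the inhibitor and 7582 and 6003 with DMSO. Its values ran opposite to those of Muc4, with both inhibitor libraries below both DMSO libraries. The log2 fold change was -0.56 ± 0.13 (SE, limma adjusted p = 0.0575), with a 95% interval of -0.85 to -0.27 before adjustment. It passed with DESeq2 (-0.57, adjusted p = 0.00388) and without DMSO replicate 2 (-0.73, adjusted p = 0.00418), and with edgeR the adjusted p was 0.164.

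Muc20, a membrane-bound mucin reported to bind the receptor Met in human cells, had 1233 and 934 normalised reads with the inhibitor and 817 and 846 with DMSO. Its inhibitor replicates differed from each other by more than the gap between the groups. The log2 fold change was 0.36 ± 0.21 (SE, limma adjusted p = 0.477), with a 95% interval of -0.087 to 0.80. The genes Muc4 and Muc20 overlap by 4973 bases and share 627 exon bases on opposite strands, 5.33% of the exon bases of Muc4 and 15.6% of those of Muc20. Whether the authors' counting used strand is not given, so reads of these bases cannot be assigned to either gene with certainty. For scale, 5.33% of the mean Muc4 value is 404 normalised reads with the inhibitor and 135 with DMSO, while Muc20 averaged 1083 ± 211 with the inhibitor and 832 ± 20.9 with DMSO (SD, n = 2 each). The part of the overlap in the Muc20 values was not tested. Beyond Muc20, Smbd1 had at most 22.4 normalised reads in any library. Tnk2, the nearest listed gene on the other side of Muc4, had a log2 fold change of 0.0052 ± 0.13 (SE, limma adjusted p = 0.991).

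Because transcripts differ in length, mucins were compared with each other per kb of longest transcript. Per kb with the inhibitor, Muc1 was the highest at 2045 ± 184 normalised reads, followed by Muc4 at 671 ± 104, Muc5b at 392 ± 192, Muc20 at 295 ± 57.6 and Muc5ac at 71.0 ± 7.62 (SD, n = 2). With DMSO the order was Muc1 at 3029.6 ± 498 normalised reads per kb, Muc5b at 1395 ± 425, Muc20 at 226 ± 5.69, Muc4 at 224 ± 42.8 and Muc5ac at 129 ± 44.0 (SD, n = 2). Muc5b and Muc20 overlapped between libraries in the inhibitor group, and Muc20 and Muc4 overlapped in the DMSO group. The values of all other neighbours in the order did not overlap within a group.

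Of the summed mucin level per kb, Muc5b made up 7.14% and 15.7% with the inhibitor and 29.7% and 25.5% with DMSO. The share of Muc4 was 20.8% and 17.8% with the inhibitor and 4.45% and 4.52% with DMSO. Muc20 made up 9.35% and 7.57% with the inhibitor and 3.89% and 5.37% with DMSO, and Muc5ac 2.13% and 1.95% with the inhibitor and 2.80% and 2.28% with DMSO. The shares of these 4 mucins did not overlap between the groups, where the values of 44.9% of all tested genes did not either. Shares of a total are tied to each other, so a smaller Muc5b share raises the other shares by itself. The level of Muc20 did not pass (limma adjusted p = 0.477). Muc1 held 60.6% and 57.0% with the inhibitor and 59.2% and 62.4% with DMSO, ranges that overlap. All 5 mucins together took 0.0742% and 0.0797% of all normalised reads with the inhibitor and 0.147% and 0.103% with DMSO.

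**Figure D2:**
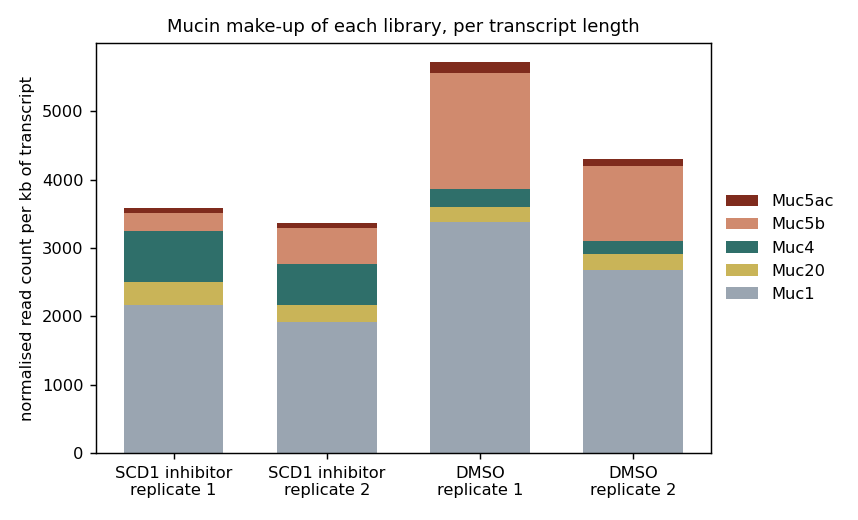
Normalised read counts per kb of longest transcript, stacked for the 5 detected mucins in each library, inhibitor libraries left and DMSO libraries right. Muc1 is the largest block in every library, the Muc5b block is smaller and the Muc4 block larger in both inhibitor libraries.

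Gel-forming mucins were lower relative to membrane-bound ones, but the membrane-bound mucins did not share a direction. The mean log2 fold change was -1.34 for the gel-forming and 0.46 for the 3 membrane-bound mucins, a difference of -1.80. Within a library, the mean log2 value of the gel-forming minus that of the membrane-bound mucins was -1.05 and -0.34 with the inhibitor and 1.33 and 0.89 with DMSO. The difference was -1.24 without Muc4 and -2.31 without Muc1, whose fold change had the sign of the gel-forming mucins. Muc4 and Muc1, both membrane-bound, were 2.13 apart in log2 fold change. The largest shift between single genes was that of Muc5b over Muc4, with ratios of 0.456 and 1.17 with the inhibitor and 8.84 and 7.48 with DMSO. Muc5ac over Muc4 was 0.0977 and 0.105 with the inhibitor and 0.599 and 0.481 with DMSO. Muc5ac over Muc1 was 0.168 and 0.164 with the inhibitor and 0.227 and 0.175 with DMSO. These are descriptions, and an exact two-sided permutation test of 2 against 2 samples cannot give a p below 0.333.

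Upstream sequence was given for Muc1, Muc4 and Muc20 among the 5 detected mucins (RefSeq, GRCm38.p6, the assembly of mm10). The 250 bases before the start are shown for Muc4 and Muc1, whose values ran in opposite directions, at chr16:32735636-32735885 and chr3:89228806-89229055, both plus strand. Capitals mark TATAAA in both and GGGCGG in Muc1.
Muc4 upstream: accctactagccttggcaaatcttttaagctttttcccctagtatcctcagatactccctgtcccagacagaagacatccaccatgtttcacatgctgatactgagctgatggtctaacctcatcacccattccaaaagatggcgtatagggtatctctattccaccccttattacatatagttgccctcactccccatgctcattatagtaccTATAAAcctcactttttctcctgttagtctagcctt
Muc1 upstream: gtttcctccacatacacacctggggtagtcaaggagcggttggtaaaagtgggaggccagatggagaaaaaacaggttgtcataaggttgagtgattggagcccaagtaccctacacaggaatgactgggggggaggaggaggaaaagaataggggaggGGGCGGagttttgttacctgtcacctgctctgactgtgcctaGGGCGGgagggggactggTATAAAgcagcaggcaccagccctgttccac
Searched on both strands, TATAAA was found in 1 place in each of them, and in 12.4% of 32851 promoter windows of the same length. GGGCGG, the core of a GC box, was found in 2 places in Muc1, in none in Muc4 and in 32.7% of all windows. Neither held TTCNNNGAA, a spacing read by STAT factors that 7.02% of windows held, or the form with 1 more N in its middle that STAT6 prefers, which 5.85% held. Neither held TGTTTAC, a forkhead motif that 3.17% of windows held and Muc20 held in 1 place, or CCGGAT, an ETS-type motif found in 4.94%. A match is a string of letters and not a site.

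Goblet cell genes other than mucins were lower in the same libraries. Fcgbp, Clca1, Tff2 (log2 fold change -1.86), Bpifb1 (log2 fold change -1.61), Ern2 and Agr2 fell. Ern2 passed the floor for testing only through its DMSO values. Of 9 goblet markers 6 fell and none rose, where 0.427% of all genes tested were called lower. The median log2 fold change was -1.61, beside 0.0056 over all genes tested. Spdef (-1.38, limma adjusted p = 0.206), Gp2 (-1.52, adjusted p = 0.262) and Foxa3 (-0.52, adjusted p = 0.753) did not pass. This list and those below were chosen with earlier results of these data known, so such counts only describe these data. With edgeR only Fcgbp passed, without SCD1 inhibitor replicate 1 Fcgbp and Clca1, and without SCD1 inhibitor replicate 2 those and Bpifb1. DESeq2 called 3 of the 4 goblet markers it gave an adjusted p, where it called 1.73% of all 8418 such genes lower. Limma without its intensity trend called no gene of any list (1423 of all genes had an unadjusted p under 0.05). Their summed level was 14548 and 28627 normalised reads with the inhibitor and 79726 and 63822 with DMSO, and no goblet marker was at 0. Most of this sum was Clca1 (8106 and 15504 with the inhibitor, 48387 and 35269 with DMSO) and Bpifb1 (4138 and 9970, 21214 and 18305). Ratios to the sum thus rest mainly on these genes and not on the whole marker list. Muc5b equalled 26.3% and 27.6% of this sum with the inhibitor and 31.8% and 25.6% with DMSO, so its ratio to the sum overlapped between the groups. Muc5ac equalled 5.64% and 2.46% of the sum with the inhibitor and 2.16% and 1.65% with DMSO. Its ratio was thus higher in both inhibitor libraries, but 2.46% and 2.16% lie close, and values of 44.9% of all tested genes did not overlap either. The level of Muc5ac itself was not higher (log2 fold change -0.80).

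Relative to the summed level of 6 general epithelial markers, Muc4 equalled 5.78% and 4.42% with the inhibitor and 2.08% and 1.57% with DMSO. The ciliated markers summed to 505903 and 522089 normalised reads with the inhibitor and 494401 and 504645 with DMSO, ranges that overlap, and Muc4 equalled 1.66% and 1.29% of that sum with the inhibitor and 0.581% and 0.433% with DMSO. Muc1 equalled 3.36% and 2.82% of the general epithelial sum with the inhibitor and 5.50% and 4.31% with DMSO, without overlap. It equalled 1.56% and 1.65% of the alveolar type 2 marker sum with the inhibitor and 1.90% and 1.31% with DMSO, overlapping ranges. Of the alveolar type 2 markers 4 of 9 fell, and of the club cell markers 3 of 8, where 0.427% of all tested genes were called lower. The alveolar genes were Sftpc (-0.65), Sftpb (-0.57), Abca3 (-0.52) and Lyz2 (-0.62), and the club cell genes were Scgb3a2, Gabrp (-0.96) and Cyp2f2 (-0.65), in log2 fold change. With edgeR, and without either SCD1 inhibitor library, 0 of the alveolar type 2 markers passed and Scgb3a2 was the 1 club cell marker that did (in edgeR 12.2% of all genes had an unadjusted p under 0.05). DESeq2 called 7 alveolar type 2 and 4 club cell markers lower, where it called 1.73% of the 8418 genes with an adjusted p lower and 3.93% higher. The part of the alveolar type 2 and club cell genes in the Muc1 values was not tested. Aqp5 (log2 fold change -0.85) was the 1 alveolar type 1 marker that fell, and Ccdc39 (log2 fold change 1.42) the 1 ciliated marker that rose. Both calls ended with edgeR and without either SCD1 inhibitor library, while DESeq2 called 4 ciliated markers higher. None of the basal, tuft, general epithelial, leukocyte, endothelial and fibroblast markers passed limma's test. Most basal markers had lower values all the same: the 6 summed to 913 and 3072 normalised reads with the inhibitor and 5232 and 3898 with DMSO. All 5 tested had negative log2 fold changes, with a median of -1.30, but Trp63 was almost unchanged (-0.026, limma adjusted p = 0.989). Krt15, the most abundant, had 407 and 1588 normalised reads with the inhibitor and 2517 and 2162 with DMSO (limma adjusted p = 0.0921), and the log2 fold changes of Krt5 and Aqp3 were -1.30 and -1.58. DESeq2 called Krt5 and Aqp3, as did limma without DMSO replicate 2, and limma without SCD1 inhibitor replicate 2 called Krt15. The part of basal cells in the mucin values was not tested. The log2 fold changes of the most abundant markers of the other types were -0.33 for Avil, 0.28 for Cd24a, -0.70 for Lyz1, -0.46 for Vwf and 0.98 for Col3a1. Those of the most abundant ciliated, alveolar type 1 and mesothelial markers were -0.085 for Sec14l3, -0.11 for Cldn18 and -0.24 for Krt19. The median over the 7 tested mesothelial markers was 0.11.

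Secreted proteins that travel with mucins were lower with the inhibitor along with Muc5b. Of 13 tested members of the mucus-associated list, 9 fell and none rose (median log2 fold change -1.61), where 0.427% of all tested genes were called lower, and 4 of its genes are also on the goblet marker list. With edgeR 3 of them passed, Fcgbp, Scgb3a2 and Reg3g, which were all the genes edgeR called lower. With DESeq2, 1.73% of the 8418 genes with an adjusted p were called lower. DESeq2 called 6, and without SCD1 inhibitor replicate 1 limma called 4. Fcgbp, a protein of the mucus gel, had 1882 and 2487 normalised reads with the inhibitor and 8195 and 8129 with DMSO (log2 fold change -1.90, limma adjusted p = 5.75e-05). Clca1, a secreted goblet cell protease that processes mucus, had 8106 and 15504 normalised reads with the inhibitor and 48387 and 35269 with DMSO (log2 fold change -1.88, limma adjusted p = 0.00163). Scgb3a1 fell with a log2 fold change of -2.22, the antimicrobial lectin Reg3g with -1.53 and the secretoglobin Scgb3a2 with -1.15. The most abundant member, the club cell secretoglobin Scgb1a1, had a log2 fold change of -0.23 (limma adjusted p = 0.729).

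Genes that fold and build mucins were less uniform. The median log2 fold change of 14 genes of mucin folding and goblet transcription was -0.35. Of these 2 fell and none rose, where 0.427% of all tested genes were called lower, and both are also on the goblet marker list. They were Agr2, which helps mucins fold in the endoplasmic reticulum, at 168 and 251 normalised reads with the inhibitor and 468 and 835 with DMSO (limma adjusted p = 0.0476), and Ern2, the stress sensor of mucous cells, at 7.64 and 16.8 with the inhibitor and 216 and 152 with DMSO (limma adjusted p = 0.0385). Neither passed with edgeR or without either SCD1 inhibitor library. DESeq2 gave neither of them an adjusted p (log2 fold changes -1.64 for Agr2 and -3.92 for Ern2). Of the 9 genes of that list with an adjusted p in DESeq2, it called Calr lower and no other gene. Over all 8418 genes with an adjusted p, DESeq2 called 1.73% lower and 3.93% higher. Calr, the abundant chaperone of that list, had a log2 fold change of -0.30 (limma adjusted p = 0.202). None of 24 tested O-glycosylation genes passed, with a median log2 fold change of -0.086, and the most abundant, Galnt18, had -0.055. None of 21 genes of granule secretion (median 0.028), 21 of membrane mucin partners and sheddases (median -0.020) or 22 regulators from type 2 cytokine, EGF and Notch signalling (median -0.083) passed limma's test. The log2 fold changes of the most abundant gene of each list were 0.24 for Hspa5 (a chaperone that was placed on the secretion list), 0.14 for Ezr and -0.10 for Stat6. Over all genes, 14.1% had an unadjusted p under 0.05. Erbb2, the partner of Muc4 in other species, was not among the genes that passed (log2 fold change -0.44, limma adjusted p = 0.115), and was named after its value was seen. It was called lower with DESeq2, which also called Scin lower and Cplx2 higher among the granule secretion genes.

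**Figure D3:**
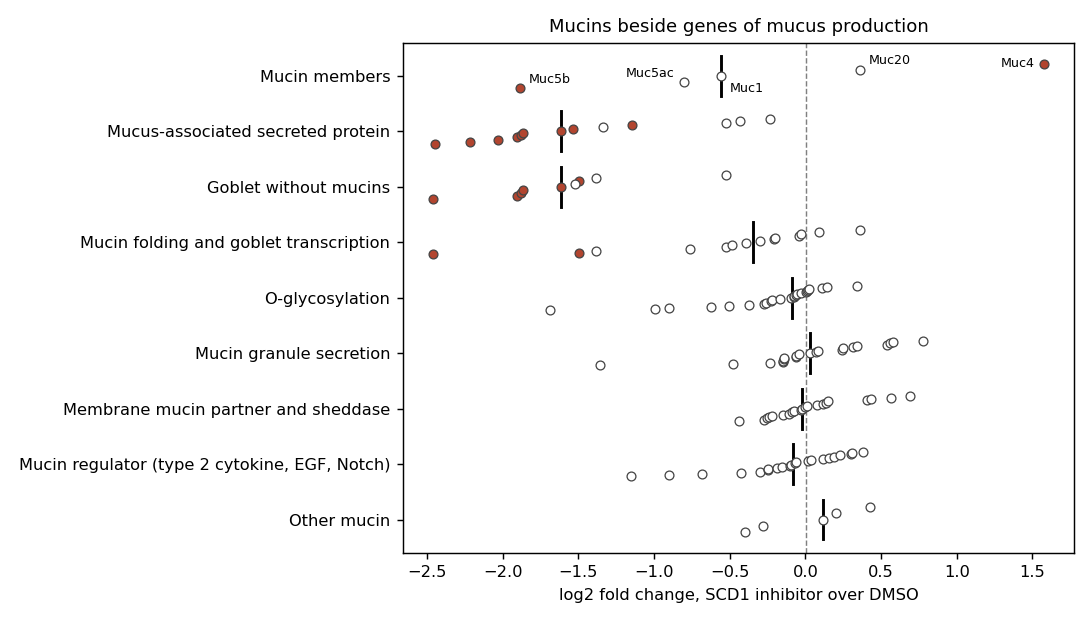
Log2 fold change, SCD1 inhibitor over DMSO, of each tested gene in the mucin set and in lists of mucus production, with red points for genes that passed limma's test, black bars for list medians and a dashed line at the median of all genes tested. Muc5b lies among the goblet and mucus-associated genes and Muc4 lies above every gene of the other lists drawn.

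Other mucin family members were near absent or did not pass. Of 18 names, 12 were analysed, 8 were above 0 in a library and 5 passed the floor, none of which passed the test. Muc6, a gel-forming mucin of stomach, had 19.1 and 53.5 normalised reads with the inhibitor and 25.3 and 0 with DMSO. Muc3 had 13.9 normalised reads in DMSO replicate 2 alone, and Mucl3 had 18.2 and 37.8 with the inhibitor and 13.6 and 22.8 with DMSO. Cd164, a small sialomucin of many cells, had 6465 and 6769 with the inhibitor and 6689 and 5552 with DMSO (log2 fold change 0.12, limma adjusted p = 0.727). The values of Emcn (-0.40), Mcam (0.20), Podxl (-0.28) and Ovgp1 (0.43) did not pass either, and the first 3 mark mainly vessels.

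Likeness to a mucin was measured as the distance between log2 profiles over the 4 libraries, each centred on its mean. The gene nearest to Muc5b among all tested was Clca1 (distance 0.145), followed by Krt4, Msln, Pglyrp1 and Upk3bl (0.260 to 0.395). Msln, which encodes mesothelin and was the 1 mesothelial marker that passed with limma but not with edgeR or without SCD1 inhibitor replicate 1 or DMSO replicate 1, had 233 and 596 normalised reads with the inhibitor and 1388 and 997 with DMSO (log2 fold change -1.58, limma adjusted p = 0.0381). Of the 7 tested mesothelial markers, 5 had positive and 2 negative log2 fold changes, with a median of 0.11. Muc5ac was nearest to Tmem39a (0.0627), then Lamb3, Bmp2, Mst1r and Kcnq1, and lay 1.40 from Muc5b and 0.354 from Muc1. Muc4 was nearest to Cntln (0.0919), then Tdrkh, Phf11d and Gm45916. With 4 libraries, nearness describes these samples only.

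Fold changes rose with transcript length above 2 kb in these libraries, and the mucins stood on both sides of that trend. The median log2 fold change was -0.050 over 2903 genes with a longest transcript of 2 to 3 kb, the lowest of the length classes. It was 0.15 over 614 genes of 8 to 12 kb and 0.19 over 166 genes above 12 kb. Shorter genes did not follow the trend, with 0.028 over 648 genes up to 1 kb and -0.030 over 2285 genes of 1 to 2 kb. Of the genes of 8 to 12 kb, where Muc5ac and Muc4 lie, 30 were called higher and 2 lower, and of those above 12 kb, where Muc5b lies, 7 and 2, beside 1.36% higher and 0.427% lower over all genes. Muc4 thus lay in the direction of the long genes and Muc5ac and Muc5b against it. With the trend of each library over length removed, the log2 fold change was 1.38 for Muc4, -2.13 for Muc5b, -0.52 for Muc1, 0.37 for Muc20 and -0.99 for Muc5ac, which then passed (limma adjusted p = 0.0212).

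The share of all genes called is the background for each other way of testing the mucins. It was 0.0458% higher and 0.0196% lower with edgeR, where Muc4 was called, and 3.93% higher and 1.73% lower with DESeq2, where Muc4, Muc5b and Muc1 were called. The DESeq2 shares are of the 8418 genes it gave an adjusted p, against 15299 genes with edgeR and 13810 with limma, so they are not directly comparable. With the length trend removed the share was 1.46% higher and 0.768% lower, and with no floor, over 17207 genes, 0.296% and 0.0756%. Limma without its intensity trend called 0% in either direction. Without SCD1 inhibitor replicate 1 the share was 0% higher and 0.0362% lower, and without SCD1 inhibitor replicate 2 it was 0.0217% and 0.0869%. Without DMSO replicate 1 it was 4.46% higher and 1.3% lower, and without DMSO replicate 2 it was 1.74% and 0.833%. The calls of Muc4 and Muc5b ended without SCD1 inhibitor replicate 1 and held without SCD1 inhibitor replicate 2 (limma adjusted p = 0.00727 and 0.00109).

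**Figure D4:**
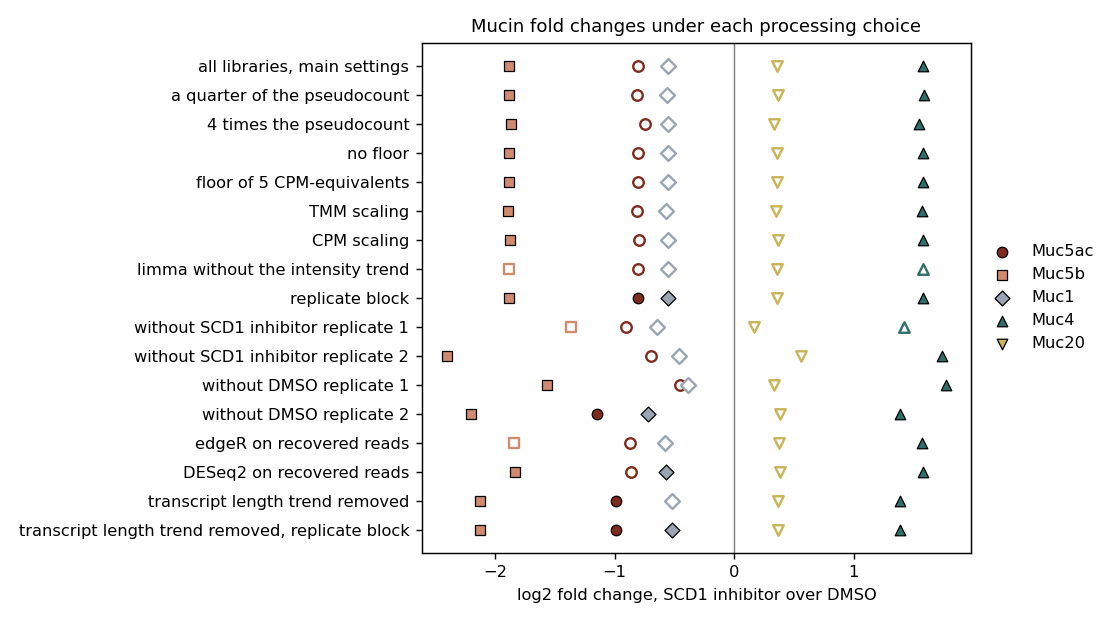
Log2 fold change of each detected mucin, SCD1 inhibitor over DMSO, with all libraries and under 16 other processing choices, filled where the adjusted p is under 0.05. Each mucin keeps its sign in all of them, though most of these choices could not have changed it. Muc20 is open throughout, and Muc5ac and Muc1 are filled in 4 each.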

How the data were processed

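Airway epithelial cells were sorted from lung, and RNA was extracted with TRIzol and made into libraries with a strand-preserving kit, per the labels' protocols. The deposited signal values are gene-level reads scaled by a single factor for each library. This was read from the values: 100% were whole multiples of a smallest step (within 0.01), and the inverse steps equalled median-of-ratios size factors. The step of DMSO replicate 2 lies near 1, so its unit is less certain. HOMER, DESeq2 and build mm10 appear in the submitters' processing notes, without versions or roles. For the aligner and the use of strand in counting, nothing is given in the sources used here.

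Values were tested as log2(value + 25.8), 25.8 being 1 CPM at the mean library total, with limma 3.58.1 in R 4.3.3 (intensity trend, group only, prior degrees of freedom 11.2) over genes with a mean of at least 25.8, Benjamini-Hochberg adjusted with a threshold of 0.05. Fold changes of low genes are understated on this scale. edgeR 4.0.16 and DESeq2 1.42.0 were run on recovered reads. Scripts were tested on simulated data. Counting error at the floor is 19.7%, and PCR copies are not independent. No label says that samples came from separate animals, and p values measure only the spread between these samples.

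GENCODE M21 (GRCm38) gave coordinates and lengths: 24497 symbols matched directly, 155 by an older symbol and 472 did not. Repeats were scored 1 per match and -2 per mismatch at lags of 9 to 600 bases. Named genes were all mucins above 0, up to 5 passing genes and the most abundant gene of each list, 5 nearest patterns for 3 mucins, and chromosomal neighbours, of which 1 nearest pattern is not reported here. The members and lists were chosen with earlier results of these data known.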

Additional observations from a re-analysis of the deposited data

How the results depend on the processing

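Each of the 5 detected mucins kept its sign under all 16 alternatives, with log2 fold changes from -2.40 to -1.36 for Muc5b, -1.15 to -0.45 for Muc5ac, -0.73 to -0.39 for Muc1, 1.38 to 1.77 for Muc4 and 0.16 to 0.55 for Muc20. A changed floor, intensity trend or replicate block leaves the log2 fold change as it was. With separated groups, leaving out a library or changing the pseudocount cannot turn a sign either, so these settings do not test the sign. Muc4 passed in 14 of the 16, Muc5b in 13, Muc5ac and Muc1 in 4 each and Muc20 in 0. The difference between gel-forming and membrane-bound mucins moved by less than the replicate SD of 0.42 in all 16. The floors, trend, block and left-out libraries could not have moved it by more. Other pseudocounts, a higher floor and other scalings moved no count of genes or mucins called by more than 1.5 times.

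Counts of calls depended on the model of the spread. Over all genes, 188 were called higher and 59 lower, against 51 and 13 with no floor, 7 and 3 with edgeR, 331 and 146 with DESeq2, and 202 and 106 with the length trend removed (65.6% higher, against 76.1%). Limma without its intensity trend called 0 and 0, with 1423 genes at an unadjusted p under 0.05, and so 0 mucins in either direction. Mucins called lower numbered 0 with edgeR (12.2% of genes at an unadjusted p under 0.05), 2 with DESeq2 (Muc1, Muc5b) and 2 with the length trend removed (Muc5ac, Muc5b). With 1 library left out, genes called higher ranged from 0 to 616 and lower from 5 to 179, and mucins called higher from 0 to 1 and lower from 0 to 3. The lowest counts came without SCD1 inhibitor replicate 1 and the highest gene counts without DMSO replicate 1, and 3 mucins were lower when DMSO replicate 2 was left out. With a library left out, the lone sample is assumed to vary like the remaining pair. The cause of these differences was not tested.

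The labels number replicates alike in both groups but do not say that the numbers pair samples. Same-numbered samples deviated together only weakly (r = 0.073 across 13810 genes). With the replicate number as a block, 469 genes were higher (3.4%) and 205 lower (1.48%) and 3 mucins lower (Muc1, Muc5ac, Muc5b), and with the block and the length trend removed 521 (3.77%), 385 (2.79%) and 3. That fit has 1 residual degree of freedom per gene. The detected mucins had at least 672 reads in every library.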
